A study of Mus musculus with 2 samples.

Results

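The tumor necrosis factor (TNF) superfamily was examined in the intestine of WT and ERAP1+/- mice as 55 of the 40879 gene symbols counted. The rule takes symbols alone and uses no measured value, but it was set with earlier results of these data known. The set holds every symbol that begins with Tnfsf (ligands), Tnfrsf (receptors) or Tnfaip (proteins first described as induced by TNF), and 14 members with other names, such as Tnf, Fas, Cd40 and Ltbr. By class these are 19 ligands, 27 receptors, 8 Tnfaip genes and Tnfsf13os, a transcript antisense to Tnfsf13 that the symbol rule takes in. Gene positions below are on the mouse build GRCm38, where GENCODE M21 held all 55 symbols.

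Ligands of this superfamily are trimers, made on the cell surface or shed from it, that draw receptors together. Inside the cell, receptors recruit TRAF adaptors and switch on NF-kB, or, where they carry a death domain, can start apoptosis. In the gut the family is known for TNF itself, for lymphotoxin signals that build lymphoid tissue, for BAFF and APRIL, which keep B cells and IgA plasma cells alive, and for TL1A, a ligand linked to inflammatory bowel disease.

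The series holds 1 WT library and 1 ERAP1+/- library, each of RNA pooled from 3 mice, so that no value has a replicate and no p-value is given. By the methods, the mice were on the C57BL/6 background and were 8 weeks old when the study began. Tissue was taken at its end, weeks later. The mice are called germ-free although housed in a specific pathogen-free facility. The ERAP1+/- allele came from 1 embryonic stem cell clone with the tm1a allele, and exons 6 and 7 were removed with a Cre strain that is not named. The labels name the tissue only as intestine and give no treatment, while the paper's discussion places this comparison under steady-state conditions. For the tissue sequenced, the paper's abstract and conclusion name the colon, and its methods the intestine. WT and ERAP1+/- are the genotypes as labelled.

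The WT library held 8114826 reads and the library labelled ERAP1+/- 8907515. Erap1 had 229 reads in WT and 2 in ERAP1+/-, 137-fold lower (37.5 to 1139). A heterozygote keeps 1 unaltered allele, so a level this low goes against the label, and every direction below rests on the library labelled ERAP1+/-. The method reads 3' ends of transcripts, outside the deleted exons, so these reads do not check the deletion itself. All 12 markers of intestinal epithelium had reads in both libraries, with 71063 reads in WT and 85989 in ERAP1+/-. Of these 12, 7 had lower levels in ERAP1+/-, and without Muc2 (12020 and 32939 reads) the sums were 59043 and 53050, a ratio of 0.751 (0.742 to 0.759). The libraries also stood apart in other tissues: 12 markers of stratified epithelium of skin summed to 20488 and 349 reads, 10 of hair follicle to 1379 and 49, and 10 of skeletal muscle to 7578 and 171. All 7 markers of smooth muscle were lower in ERAP1+/- too, with 66708 and 41105 reads and a ratio of 0.515 (0.508 to 0.521). Of sex-linked genes, Xist had 1635 reads in WT and 6451 in ERAP1+/-, while the Y-linked Ddx3y had 319 and 29. Genotype therefore cannot be told apart from the sex of the mice or the tissue taken. In bulk tissue, fewer cells of a type and less RNA per cell cannot be told apart either.

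Levels are given as CPM, reads scaled to a common library size by the TMM method. Ratios are ERAP1+/- over WT, each with its exact 95% interval, which covers counting error only and not differences between mice. Where no read was counted, as many as 3 are allowed for, equal to 0.386 CPM in WT and 0.322 CPM in ERAP1+/-. Of the 55 members, 31 had at least 20 reads over both libraries, 19 had 1 to 19 reads and 5 had none.

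Before the values, the sequences upstream of the members with the largest ratios among those with at least 20 reads are shown, since the 3 receptors of BAFF and APRIL were all higher in the library labelled ERAP1+/-. Each is the 250 bases before the RefSeq transcription start on build GRCm38.p6, written 5′ to 3′ on the strand of the gene. The regions are chr11:61126505-61126754 on the plus strand for Tnfrsf13b, chr15:82224381-82224630 on the minus strand for Tnfrsf13c, and chr16:11313559-11313808 on the plus strand for Tnfrsf17. Capitals mark a match on either strand to GGNNTTTCC, a core of the sites that NF-kB binds.
Tnfrsf13b: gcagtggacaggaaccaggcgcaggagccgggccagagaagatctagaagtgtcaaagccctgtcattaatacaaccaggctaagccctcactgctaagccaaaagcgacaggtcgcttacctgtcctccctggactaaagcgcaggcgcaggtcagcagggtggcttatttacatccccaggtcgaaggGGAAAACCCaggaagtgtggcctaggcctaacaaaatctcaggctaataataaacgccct
Tnfrsf13c: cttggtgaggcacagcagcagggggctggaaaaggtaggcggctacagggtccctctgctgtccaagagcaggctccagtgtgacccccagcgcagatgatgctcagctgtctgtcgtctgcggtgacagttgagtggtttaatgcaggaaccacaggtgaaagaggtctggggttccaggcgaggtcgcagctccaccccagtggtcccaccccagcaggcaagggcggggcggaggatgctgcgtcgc
Tnfrsf17: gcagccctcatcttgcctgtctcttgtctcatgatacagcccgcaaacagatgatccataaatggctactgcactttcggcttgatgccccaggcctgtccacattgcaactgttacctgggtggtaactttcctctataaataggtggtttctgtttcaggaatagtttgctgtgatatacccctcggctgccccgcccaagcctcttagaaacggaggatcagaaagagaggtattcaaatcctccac

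Tnfrsf13b held 1 match, on the minus strand and 60 bases before the start, and Tnfrsf13c and Tnfrsf17 held none. The octamer ATGCAAAT, known from B cell promoters, and GAGGAAGT, a site of the ETS factor PU.1, had no match in any of the 3. The GC content was 54.0% for Tnfrsf13b, 63.2% for Tnfrsf13c and 49.2% for Tnfrsf17. RefSeq gave promoters for 43 members (48 promoters, since some genes have several starts). Of the 48, 7 held the NF-kB core, against 4.93% of all 32851 promoters searched over the same 250 bases. The octamer was found in 2 member promoters and in 1.60% of all, and the PU.1 site in 1 and in 2.44%. A match of letters is a description and says nothing of binding.

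Tnfaip3, which encodes A20, an inhibitor of NF-kB that NF-kB itself induces, held 2 matches in a row. They are shown because Tnfaip3 is the classical readout of this pathway among the members. The stretch is the last 60 bases before the RefSeq start, chr10:19015411-19015470 on the minus strand, with both matches in capitals.
Tnfaip3: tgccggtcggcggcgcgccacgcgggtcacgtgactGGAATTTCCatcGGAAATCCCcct

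In the reads, Tnfaip3 had 58 in WT and 69 in ERAP1+/-, and its level was 7.46 and 7.42 CPM. The ratio was 0.994 (95% interval 0.691 to 1.43).

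**Figure D1:**
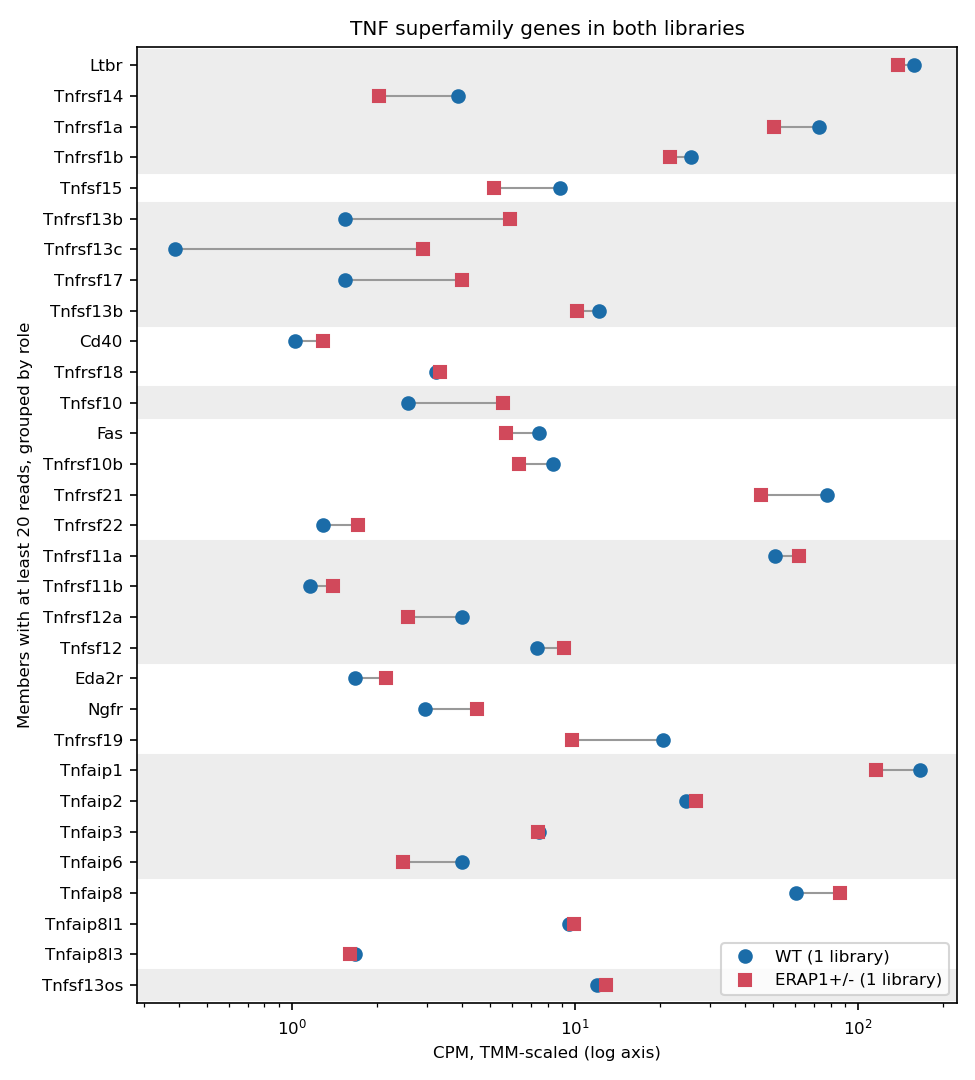
Level of each member with at least 20 reads over both libraries, in CPM on a log axis, with circles for the WT library and squares for the ERAP1+/- library (1 library each, no error bars). Shaded bands separate the roles, and the widest gap is that of Tnfrsf13c, from 0.386 CPM in WT to 2.90 CPM in ERAP1+/-.

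Across the 31 members with at least 20 reads, 4 were more than 2-fold higher in the library labelled ERAP1+/- and 1 was more than 2-fold lower, or 12.9% and 3.23% of them. Among all 14592 symbols with that many reads, 5.39% were higher and 7.08% were lower by the same rule. The higher members were Tnfrsf13b, Tnfrsf13c, Tnfrsf17 and Tnfsf10, and the lower one was Tnfrsf19. On log2(CPM + 1), among symbols with a value of at least 4 in 1 or both libraries, there were 9 members, and none passed 2-fold in either direction (background 1.39% higher and 3.96% lower). Tnfrsf19 lay just short of 2-fold there, with a difference of -0.99.

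The counting interval left out a ratio of 1 for 6 members on the higher side and 7 on the lower side. Among all symbols with at least 20 reads the shares were 21.7% and 24.9%, and among the members 19.4% and 22.6%, close to that background. The median log2 ratio was 0.05 over the 31 members (quartiles -0.45 and 0.34) and 0.00 over all symbols. The middle of the members thus lay within 0.05 of that of all symbols. With only the 23 ligands and receptors the median was 0.05 as well.

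**Figure D2:**
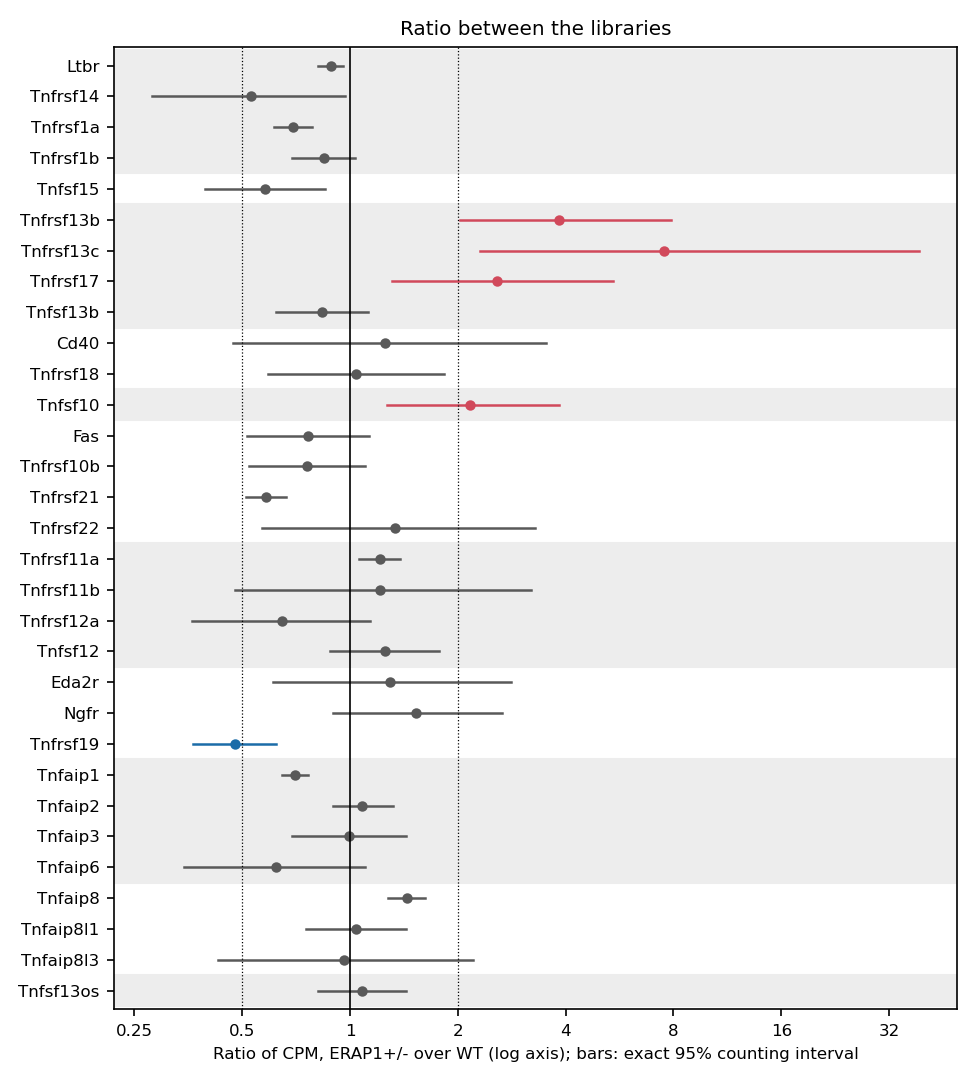
Ratio of CPM (ERAP1+/- over WT, log axis) for the 31 members with at least 20 reads, with the exact 95% counting interval as a bar, a solid line at 1 and dotted lines at 2-fold. Red marks the 4 members more than 2-fold higher, blue marks Tnfrsf19, and the bar of Tnfrsf13c runs from 2.31 to 38.7.

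TNF and the lymphotoxins, the founding ligands of the family, were near or below the limit of detection. Tnf, the main inflammatory cytokine of the group, had 0 reads in WT and 4 in ERAP1+/-, and the exact lower limit of its ratio was 0.551. Lta had 0 and 1 read, and Ltb had 5 in each library. No difference in these ligands was detectable at this depth. The 3 genes lie next to each other in the major histocompatibility complex on chromosome 17 of GRCm38, with Ltb from 35194439 to 35196320, Tnf from 35199381 to 35202007 and Lta from 35203165 to 35205351.

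Their receptors had far more reads and were lower in the library labelled ERAP1+/- by less than 2-fold. Tnfrsf1a, the death domain receptor of TNF found on most cells, had 563 reads in WT and 468 in ERAP1+/- and was 1.44-fold lower (95% interval 1.27 to 1.63). Tnfrsf1b, the second TNF receptor, mainly of leukocytes and endothelium, had 200 and 202 reads and a ratio of 0.844 (0.690 to 1.03), an interval that includes 1. Reads of Tnfrsf1a per 100 reads of Tnfrsf1b were 282 in WT and 232 in ERAP1+/-, a quotient of 0.823 (0.649 to 1.04), whose interval includes 1. Ltbr, the lymphotoxin beta receptor, had 1218 and 1288 reads and was 1.13-fold lower (1.05 to 1.23). Tnfrsf14, or HVEM, which binds LIGHT and the inhibitory receptor BTLA, had 30 and 19 reads and was 1.89-fold lower (1.03 to 3.55). With scaling by the total count the intervals of Ltbr (0.890 to 1.04) and Tnfrsf14 (0.307 to 1.06), as ratios, included 1. Over the 4 receptors together, 2011 and 1977 reads gave a ratio of 0.821 (0.771 to 0.874). Summed markers of intestinal epithelium had a ratio of 1.01 (1 to 1.02), or 0.751 (0.742 to 0.759) without Muc2. Fibroblast markers had a ratio of 0.859 (0.845 to 0.874), and those of macrophages and dendritic cells 1.30 (1.23 to 1.37). The part of these cells in the levels of the receptors was not tested.

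LIGHT and TL1A bind HVEM and DR3, and both act on T cells. Tnfsf15, which encodes TL1A, had 69 reads in WT and 48 in ERAP1+/- and was 1.72-fold lower (1.17 to 2.54). Its receptor gene Tnfrsf25 (DR3) had 0 and 4 reads, and Tnfsf14 (LIGHT) had 0 and 6. For both of these the exact lower limit of the ratio lay below 1.

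The 3 receptors of BAFF and APRIL were higher in the library labelled ERAP1+/-, each by more than 2-fold. Tnfrsf13b (TACI), carried by B cells and plasma cells, had 12 reads in WT and 55 in ERAP1+/-, a level of 1.54 and 5.91 CPM and a ratio of 3.83 (95% interval 2.03 to 7.86). Tnfrsf13c, the BAFF receptor on which mature B cells depend, had 3 and 27 reads and a ratio of 7.52 (2.31 to 38.7). Tnfrsf17 (BCMA), which sustains plasma cells, had 12 and 37 reads and a ratio of 2.58 (1.31 to 5.43). All 3 were low in WT and higher in ERAP1+/-, and together they summed to 27 and 119 reads, a ratio of 3.68 (2.41 to 5.82). The genes lie on different chromosomes, Tnfrsf13b on 11, Tnfrsf13c on 15 and Tnfrsf17 on 16, and none shares exonic bases with another annotated gene.

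The BAFF gene itself had equal reads. Tnfsf13b, which encodes BAFF and is transcribed in myeloid and stromal cells, had 95 reads in each library, a ratio of 0.835 (0.622 to 1.12). Per 100 reads of Tnfsf13b, the receptors had 28.4 reads in WT and 125 in ERAP1+/-, a quotient of 4.39 (2.59 to 7.60) that does not depend on the scaling of the libraries.

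Most markers of the B lineage were higher in the library labelled ERAP1+/- as well. The 10 B cell markers summed to 128 reads in WT and 294 in ERAP1+/-, a ratio of 1.92 (1.55 to 2.38), with 8 of the 10 above 1 and 3 past 2-fold (Cd79b with 5 and 50 reads, Ms4a1 with 13 and 38, Fcmr with 3 and 21). The 7 plasma cell markers summed to 2219 and 4925 reads, a ratio of 1.85 (1.76 to 1.95), and 3 of them were past 2-fold higher (Jchain, Mzb1 and Derl3) and 1 was lower (Prdm1, 216 and 99 reads). Jchain, with 561 and 2788 reads, made most of that difference, and without it the ratio was 1.08 (1.01 to 1.15). Per 100 reads of the B cell markers, the receptors had 21.1 reads in WT and 40.5 in ERAP1+/-, a quotient of 1.92 (1.18 to 3.18). Leaving out each marker in turn gave 1.74 (1.07 to 2.90, without Cd22) to 2.22 (1.36 to 3.70, without Cd79b). By gene this quotient was 1.99 (1.01 to 4.23) for Tnfrsf13b, 3.91 (1.17 to 20.5) for Tnfrsf13c and 1.34 (0.658 to 2.92) for Tnfrsf17, and that of Tnfrsf13b had a lower limit under 1 without some markers (0.912 without Cd22). Per 100 reads of the plasma cell markers, the receptors had 1.22 reads in WT and 2.42 in ERAP1+/-, a quotient of 1.99 (1.29 to 3.15). This quotient was not recomputed without Jchain. All 5 markers of lymphoid stroma were higher in ERAP1+/- as well. They summed to 946 and 1544 reads, a ratio of 1.36 (1.26 to 1.48), or 1.42 (1.23 to 1.64) without Ccl21a. The part of these cells in the shift of the receptors was not tested.

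**Figure D3:**
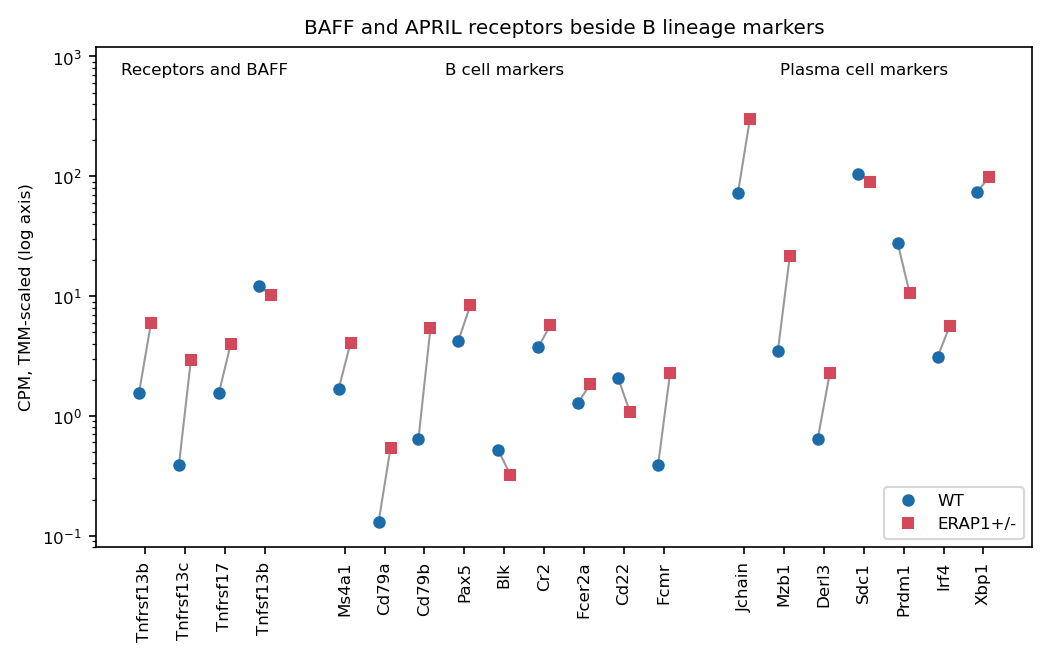
CPM (log axis) in WT (circles) and ERAP1+/- (squares) for the BAFF and APRIL receptors with the ligand gene Tnfsf13b, for 9 of the 10 B cell markers and for 7 plasma cell markers, 1 library per genotype. The 3 receptors lie at 1.54 CPM or lower in WT and at 2.90 CPM or higher in ERAP1+/-, Tnfsf13b lies at 12.2 and 10.2 CPM, and Blk, Cd22, Sdc1 and Prdm1 are lower in ERAP1+/-.

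Tnfsf13, which encodes APRIL, had no read in either library, and neither had Tnfsfm13, a readthrough transcript of Tnfsf12 and Tnfsf13. Both are annotated on chromosome 11, minus strand, where Tnfsf13 (69682846 to 69685784) lies inside Tnfsfm13 (69682577 to 69696098). The 2 genes share 983 exonic bases, 60% of those of Tnfsf13, and they share 100% of the 500 exonic bases at its 3' end, where this method reads. A read from there matches both genes. Counters differ in what they do with such reads, and their part in the counts of 0 was not tested. Tnfsf12, whose last 500 exonic bases are its own, had 57 and 85 reads. Tnfsf13os, on the plus strand of the same locus, had 93 and 120 reads and a ratio of 1.08 (0.815 to 1.43). It overlaps 30.8% of the last 500 exonic bases of Tnfsf13, and whether strand was used in the counting is not stated. Whether the counts of 0 reflect the level of APRIL RNA therefore cannot be told from these data.

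**Figure D4:**
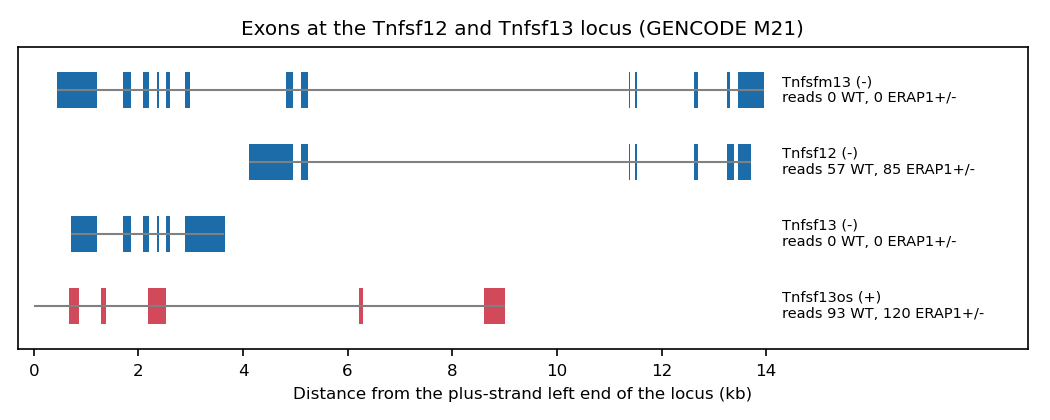
Exons (boxes) of the 4 genes at the Tnfsf12 and Tnfsf13 locus by distance in kb, with the strand of each gene and its reads in both libraries at the right. The exons of Tnfsf13 at its 3' end, on the left, also belong to Tnfsfm13, and both genes had 0 reads, while Tnfsf12 had 57 and 85.

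Costimulatory ligands, which activated T cells and antigen-presenting cells display for a short time, were almost without reads. All 6 had 0 reads in WT. In ERAP1+/-, Tnfsf8 (the ligand of CD30) had 8 reads, Tnfsf18 (the GITR ligand) 2 and Tnfsf9 (the 4-1BB ligand) 1, while Cd40lg, Cd70 and Tnfsf4 (the OX40 ligand) had none. For Tnfsf8 the exact lower limit of the ratio was 1.43. Among the 50 members with a read, 9 (18%) had reads in ERAP1+/- only and 1 (2.0%), Edar, in WT only. Of all symbols with a read, 9.59% were read in ERAP1+/- only and 8.17% in WT only. The 9 members summed to 30 reads, with 8 as the highest.

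Costimulatory receptors had reads in both libraries, at low levels. Tnfrsf18 (GITR), a receptor of regulatory and activated T cells, had 25 reads in WT and 31 in ERAP1+/-, a ratio of 1.04 (0.592 to 1.83). Of its exonic bases, 27.2% are shared with the antisense gene Gm16008, which had 10 and 20 reads. Of its last 500 exonic bases, where this method reads, 16% are shared. Without a stated strand, reads from the shared bases cannot be told apart. Cd40, the receptor through which helper T cells act on B cells and dendritic cells, had 8 and 12 reads, a ratio of 1.25 (0.471 to 3.53). Intervals this wide would hold a 2-fold difference in either direction for Cd40. The remaining 4 had fewer than 20 reads over both libraries, with 7 and 4 for Cd27, 3 and 10 for Tnfrsf4 (OX40), 6 and 5 for Tnfrsf8 (CD30) and 4 and 4 for Tnfrsf9 (4-1BB). The 15 markers of T and NK cells summed to 80 and 114 reads, a ratio of 1.19 (0.887 to 1.60), or 1.40 (1.01 to 1.97) without Cd4. Of the 15, 8 had a higher level in ERAP1+/- and 6 a lower one. The 5 markers of regulatory T cells summed to 262 and 256 reads, a ratio of 0.816 (0.684 to 0.973). Ikzf2 held most of these reads, and without it the ratio was 1.34 (0.57 to 3.29). Foxp3, in the same list, had 0 and 1 read.

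Of the death ligands, Tnfsf10 was higher in the library labelled ERAP1+/-. Tnfsf10 encodes TRAIL, an interferon-inducible ligand that can start apoptosis. It had 20 reads in WT and 52 in ERAP1+/-, a level of 2.57 and 5.59 CPM and a ratio of 2.17 (95% interval 1.27 to 3.84), the nearest to 2-fold among the higher members. Fasl, the ligand with which cytotoxic lymphocytes engage Fas, had 0 and 2 reads.

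The death receptors grouped here, Tnfrsf21, Tnfrsf10b and Fas, lay below a ratio of 1, by less than 2-fold. Tnfrsf21 (death receptor 6) had 605 and 422 reads and was 1.72-fold lower (1.51 to 1.95). Tnfrsf10b, the TRAIL receptor of the mouse that signals death, had 65 and 59 reads, a ratio of 0.758 (0.524 to 1.10), and Fas had 58 and 53, a ratio of 0.763 (0.516 to 1.13). Neither of the last 2 intervals leaves out 1.

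The cluster of 3 related receptors on chromosome 7 (143607659 to 143685872) held ratios on both sides of 1. Tnfrsf22 and Tnfrsf23 are TRAIL-binding decoys without a death domain. Tnfrsf22 had 10 and 16 reads, a ratio of 1.34 (0.570 to 3.29). Tnfrsf23 had 12 and 4 reads and was 3.59-fold lower (1.09 to 15.3), and Tnfrsf26 had 11 and 2 and was 6.58-fold lower (1.44 to 61.1). Both lower genes had fewer than 20 reads, and related sequences can share reads in the counting.

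RANK, on gut epithelium, receives the RANKL signal that makes M cells over lymphoid follicles. Tnfrsf11a (RANK) had 396 reads in WT and 574 in ERAP1+/-, a ratio of 1.21 (1.06 to 1.38). Its ligand gene Tnfsf11 had 0 and 2 reads, and Tnfrsf11b, which encodes the soluble decoy osteoprotegerin, had 9 and 13, a ratio of 1.21 (0.477 to 3.20). For TWEAK and its receptor Fn14, tied to epithelial repair, Tnfsf12 had a ratio of 1.25 (0.880 to 1.77), and Tnfrsf12a, with 31 and 24 reads, a ratio of 0.647 (0.363 to 1.14). RANK was thus the member of this group whose interval left out 1.

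Tnfrsf19 was the single member of the 31 past 2-fold lower. It encodes TROY, a receptor of crypt stem cells in the intestine and of hair follicle stem cells in the skin. It had 159 reads in WT and 91 in ERAP1+/-, a level of 20.5 and 9.78 CPM, and was 2.09-fold lower (1.61 to 2.74). The ratio was 0.478, and with scaling by the total count it was 0.521, which is inside 2-fold, so that the split was then 4 higher and 0 lower. Per 100 reads of the epithelial markers it had 0.224 reads in WT and 0.106 in ERAP1+/-, a quotient of 0.473 (0.361 to 0.616). Without Muc2 among the markers it was 0.637 (0.487 to 0.830), short of 2-fold. Markers of skin and hair follicle were lower in the library labelled ERAP1+/- too: all 12 skin markers lay below 1, with a summed ratio of 0.0142 (0.0128 to 0.0158). Of the 10 hair follicle markers 8 did, and the ratio of their sum was 0.0297 (0.0218 to 0.0395). In ERAP1+/-, 3 skin and 6 hair follicle markers had no read. Of the epithelial markers, Lgr5, which marks crypt stem cells, had 28 and 52 reads. Its ratio was 1.55 (0.962 to 2.55), an interval that includes 1. The part of these cells and tissues in the level of Tnfrsf19 was not tested.

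The other receptors of this group bind ectodysplasin or neurotrophins. Edar, needed for hair and gland buds, had 1 and 0 reads, and its ligand gene Eda had 4 and 3. Eda2r had 13 and 20 reads, a ratio of 1.29 (0.608 to 2.81). Eda and Eda2r are on the X chromosome. Ngfr, the neurotrophin receptor p75 of glia and nerves, had 23 and 42 reads, a ratio of 1.53 (0.897 to 2.66), beside 7 markers of enteric glia and Schwann cells with 1378 and 1487 reads (ratio 0.901, 0.837 to 0.971, and 0.994, 0.894 to 1.11, without Erbb3).

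Just past 2-fold were Tnfsf10 (2.17) and Tnfrsf19 (2.09-fold lower), and the nearest short of it were Tnfrsf14 (1.89-fold lower) and, on the higher side, Ngfr (1.53).

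Among the Tnfaip genes none passed 2-fold. Tnfaip1, an adaptor of cullin-3 ubiquitin ligases, had 1282 and 1080 reads and was 1.42-fold lower (1.31 to 1.54). Tnfaip2, a protein of membrane protrusions, had 191 and 248 reads, a ratio of 1.08 (0.894 to 1.32). Tnfaip6, which encodes the hyaluronan-binding protein TSG-6, had 31 and 23 reads, a ratio of 0.620 (0.345 to 1.10). Tnfaip1 was thus the only one of these, and of the 4 TNF-induced genes with Tnfaip3, whose interval left out 1.

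The Tnfaip8 family, small lipid-binding regulators of cell death and immune activation, was led by Tnfaip8. It had 468 reads in WT and 806 in ERAP1+/-, a ratio of 1.44 (1.28 to 1.62). Its relatives had ratios of 1.04 (0.756 to 1.43) for Tnfaip8l1, with 74 and 92 reads, and 0.964 (0.428 to 2.20) for Tnfaip8l3, with 13 and 15. Tnfaip8l2, or TIPE2, had 5 and 9 reads, a ratio of 1.5 (0.453 to 5.71). The interval thus left out 1 for Tnfaip8 alone of the 4, at a counting precision that differs widely between them.

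**Figure D5:**
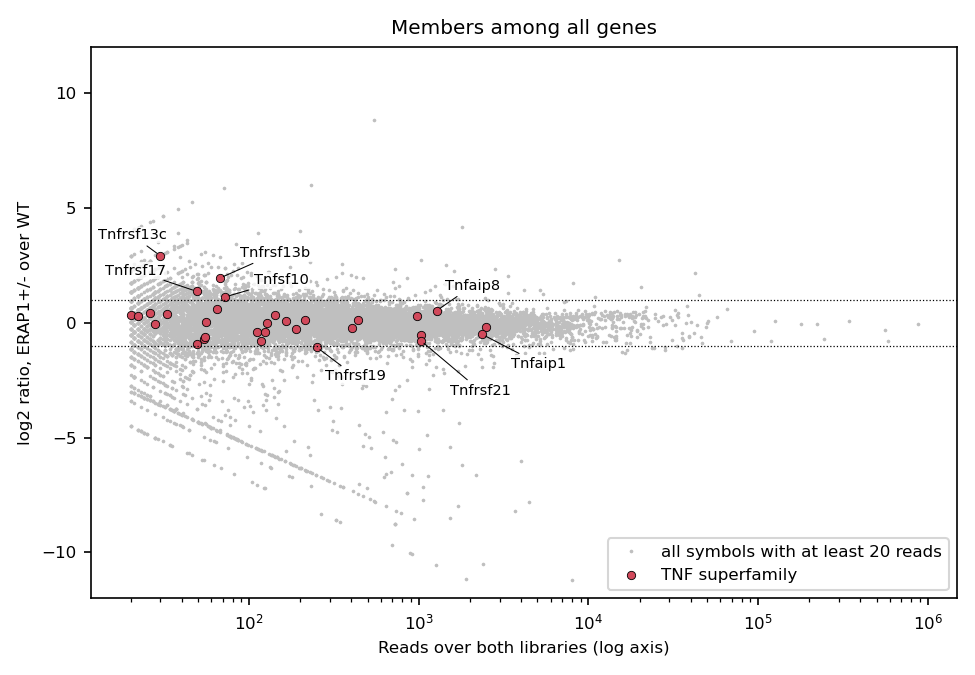
Log2 ratio (ERAP1+/- over WT) against reads over both libraries (log axis) for all 14592 symbols with at least 20 reads (grey) and the 31 members (red), with dotted lines at 2-fold. A symbol without a read in 1 library is drawn with 3 reads there, and the 5 members outside the dotted lines are Tnfrsf13b, Tnfrsf13c, Tnfrsf17, Tnfsf10 and Tnfrsf19.

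Downstream of the receptors, signaling genes past 2-fold were counted beside the 5.39% higher and 7.08% lower among all symbols. A difference of these small counts from those shares was not tested. Of 26 adaptors and ubiquitin ligases, all with at least 20 reads, 1 was past 2-fold higher and 1 lower, and their median log2 ratio was 0.05. The higher one was Traf1, an adaptor that NF-kB induces in lymphocytes, with 8 and 38 reads and a ratio of 3.97 (1.82 to 9.85). The lower one was Edaradd, the adaptor of EDAR, with 26 and 15 reads, 2.08-fold lower (1.06 to 4.21). With scaling by the total count, Edaradd had a ratio of 0.526 and was short of 2-fold, while Tnip3, an inhibitor of NF-kB with 105 and 244 reads, passed it at 2.12 (1.94 with TMM). None of the 21 kinases and NF-kB subunits passed 2-fold, and their median was -0.14. The counting interval left out 1 for 5 adaptors on the higher side and 6 on the lower, and for 2 and 5 of the kinases and NF-kB subunits. Among all symbols with at least 20 reads it did so for 21.7% on the higher side and 24.9% on the lower. Of the kinases and NF-kB subunits, Rel had 109 and 76 reads (0.582, 0.429 to 0.788) and Bcl3 had 302 and 220 (0.609, 0.509 to 0.726). Nfkbia, the inhibitor that NF-kB induces at once, had 3040 and 3679 reads, a ratio of 1.01 (0.963 to 1.06).

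Of 6 genes that shed ligands and receptors of the family or restrain the shedding, 1 passed 2-fold. Rhbdf1, a partner of the TNF-releasing protease ADAM17, had 147 and 84 reads and was 2.10-fold lower (1.59 to 2.77). With scaling by the total count its ratio was 0.521, and none of the 6 passed 2-fold. Adam17 itself had 353 and 320 reads and a ratio of 0.757 (0.649 to 0.883). Of the cells that make TNF, 12 markers of macrophages and dendritic cells summed to 1982 and 3077 reads, a ratio of 1.30 (1.23 to 1.37), beside the 0 and 4 reads of Tnf.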

How the data were processed

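The files deposited by the authors hold counts (unnormalized reads for each gene symbol) from 3' mRNA libraries (QuantSeq FWD, 75-base single-end reads). The labels name Bowtie2 and RSEM on GRCm38 and the methods also STAR with HTSeq-count, tool versions not given in the sources used here. The methods give another GENCODE release than the M21 used here for positions. From these counts, TMM factors (0.958 for WT, 1.04 for ERAP1+/-) were computed over all symbols with edgeR 4.0.16 in R 4.3.3, and CPM and ratios with exact conditional binomial 95% intervals with scipy 1.17.1. Quotients of read sums within libraries are conditional odds ratios. They, the exon overlaps and the promoter motif searches were added after seeing the data, as were marker sums without 1 gene. The rule on log2(CPM + 1) with a level of 4 is not stated in the methods and was chosen with earlier results known. One B cell marker is counted in its list and not reported singly here. The edgeR tests that the methods name need replicates and were not run. Intervals and calls were tested on simulated data with counting error only, which cannot check them against differences between mice. The members, roles and lists were chosen with earlier results of these data known. Every member is accounted for, with ratios for those with at least 20 reads and pathway genes named when past 2-fold; Adam17, Nfkbia, Tnip3, Rel, Bcl3 and the single markers named were picked after their values were seen. Alternatives were DESeq2 1.42.0 size factors, total-count scaling, TMM without RNA features or skin and muscle lists, and other filters, folds and pseudocounts. Loci are from GENCODE M21, promoters from RefSeq (GRCm38.p6).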

Additional observations from a re-analysis of the deposited data

How the results depend on the processing

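No paired analysis was possible because the comparison has 1 library on each side. Over 4 other scalings of the 31 member ratios, 122 of 124 recomputed ratios lay within the 95% interval of the reported one. The others were Ltbr (0.963) and Tnfaip1 (0.767) with scaling by the total count, which moved the median of all symbols by 0.13 on the log2 scale. Each other scaling moved log2 ratios by 0.001 or less and so nearly equalled TMM. Only the total count could thus carry a ratio out of its interval, and the share of 122 is no measure of robustness. With scaling by the total count the summed ratio was 0.896 for the receptors of TNF and lymphotoxin and 0.828 for the TNF-induced proteins. The median of the members was then 0.18, and 0 members were lower by 2-fold. With at least 50 reads the median was -0.18 and 2 members were higher by 2-fold, and with at least 10 reads the median was -0.03 and 4 were lower, so that the sign of the median depended on the filter. A 1.5-fold threshold gave 6 lower members, and a 4-fold threshold 1 higher and 0 lower. On the log2(CPM + 1) scale, 2 were higher without a filter, 1 was lower without mitochondrial and ribosomal RNA or with a pseudocount of 0.1, and 2 were lower at 1.5-fold. Depth limits the 24 members with fewer than 20 reads, among them Tnf, whose absence of reads in WT allows up to 0.386 CPM.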
